A study of Rattus norvegicus with 8 samples.

Results

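The aldo-keto reductases of the Akr1b and Akr1c branches were examined in fetal rat testis after exposure of the dam to dibutyl phthalate (DBP), a plasticizer. The group held every probe set that carried a single gene symbol beginning with Akr1b or Akr1c in the array platform's annotation. That gave 14 probe sets for 10 genes, out of 14217 genes named in this way on the array. All 8 samples were testis RNA of male Fischer 344 fetuses at gestational day 20, each on its own Affymetrix rat expression array. In the 4 vehicle samples the dam had received corn oil (1 ml per kg body weight), and in the 4 DBP samples she had received 50 mg/kg of DBP in the same volume of oil, by gavage once a day from gestational day 12 to 20. Testes were taken 6 h after the last dose. No genetic modification was part of the design, and nothing in the labels ties each sample to its own dam or litter, so errors here cover the spread between these samples only, which may be technical. Of the 10 genes, Akr1b7, Akr1b8 and Akr1c19 were picked out by their values in this same comparison, in which they passed the threshold, and the family was chosen from that result. Differences of members between the groups are therefore given as a description. Where an adjusted p of a member or a count of members past the threshold is printed, it only shows on which side of the line a probe set fell and tests nothing.

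Aldo-keto reductases are soluble enzymes that use NADPH or NADH to reduce aldehydes and ketones to alcohols, or to run the reverse reaction. The Akr1b branch centres on aldose reductase, which makes sorbitol from glucose, and on relatives that prefer lipid-derived aldehydes, retinal or prostaglandin precursors. In steroid-making cells such enzymes clear isocaproaldehyde, the aldehyde released when the cholesterol side chain is cut. The Akr1c branch holds hydroxysteroid dehydrogenases that reduce or oxidise single positions on the steroid, and so tune progesterone and androgen activity.

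The tissue carried the markers of testis. Amh, the hormone of Sertoli cells, had a log2 signal of 12.66 ± 0.044 in vehicle (SD, n = 4), and Hsd3b1, Cyp11a1 and Insl3 of Leydig cells had 12.48, 12.08 and 11.86. Correlations over all probe sets lay between 0.991 and 0.998 for any pair of arrays. DBP replicates 3 and 4 stood apart. Their poly-A spike-ins, transcripts added before labelling, averaged 4.84 and 4.79 on the log2 scale against 6.46 to 7.17 on the other 6 arrays. The lower quartile of all log2 values on these arrays was 4.36 and 4.38, against 4.23 to 4.28 elsewhere, close to the signals of most Akr1c probe sets. Members are accordingly also given for DBP replicates 1 and 2 alone and for DBP replicates 3 and 4 alone, in the text or in the plot of changes by probe set. In whole testis RNA, a change in the number of cells of a type and a change in RNA per cell cannot be told apart.

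The stretches before the starts of the 3 genes are shown because these genes were higher together. They come from RefSeq on the GRCr8 assembly, plus strand, 5′ to 3′, and 8 of the 10 genes had an entry. Capitals mark matches, on either strand, to the letters ATAAA (a sequence like the TATA box), CCAAT (the box bound by NF-Y), GGGCGG (the GC box of Sp1) and TTGCNNAA (a C/EBP site pair). Akr1b8 is shown from chr4:63964171-63964420, Akr1b7 from chr4:64043720-64043900 and Akr1c19 from chr17:70913666-70913915. The last 69 bases before the listed Akr1b7 start lie inside the annotated gene and are not printed.
Akr1b8: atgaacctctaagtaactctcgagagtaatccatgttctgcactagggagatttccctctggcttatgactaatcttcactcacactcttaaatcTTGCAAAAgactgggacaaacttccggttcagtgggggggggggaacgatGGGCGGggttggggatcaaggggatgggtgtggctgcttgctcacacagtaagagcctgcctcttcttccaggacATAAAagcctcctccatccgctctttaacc
Akr1b7: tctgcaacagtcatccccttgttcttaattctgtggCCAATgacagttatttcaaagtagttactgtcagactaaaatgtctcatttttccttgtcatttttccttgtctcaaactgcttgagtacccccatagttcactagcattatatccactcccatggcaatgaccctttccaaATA
Akr1c19: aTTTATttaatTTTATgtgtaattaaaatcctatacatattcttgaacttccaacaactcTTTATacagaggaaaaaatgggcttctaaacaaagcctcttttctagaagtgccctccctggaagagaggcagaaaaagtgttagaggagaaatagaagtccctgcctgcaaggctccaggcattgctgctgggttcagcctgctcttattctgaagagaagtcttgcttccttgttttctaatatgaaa

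The Akr1b8 stretch held ATAAA from 30 to 26 bases before the start, a GGGCGG match from 105 to 100 bases and a TTGCNNAA match from 155 to 148 bases before it. Akr1b7 held CCAAT from 214 to 210 bases before its start. It also held ATAAA from 72 to 68 bases before the start, of which the first 3 bases close the printed stretch. In its unprinted part lay the nuclear receptor half-site AGGTCA, on the opposite strand, from 48 to 43 bases before the start. Akr1c19 held ATAAA letters at 3 places, all on the opposite strand and all more than 180 bases before the start, and none of the other letters searched. No motif was found in all 3 stretches other than ATAAA, which 8 of the 8 member promoters held, and 39.3% of 33469 RefSeq promoters of the same 250 bases. CCAAT was in 3 of 8 and in 34.0% of all. The same count of 3 held for GGGCGG, found in 30.5% of all. AGGTCA was in 2 of 8 and in 14.1% of all, and TTGCNNAA in 1 of 8 and in 9.22% of all. The letters CAAGGTCA (steroidogenic factor 1), TGANTCA (AP-1) and TGACGTCA (cyclic AMP response element) were in 0 of the 8 member promoters, and in 1.33%, 6.34% and 1.59% of all. The antioxidant response core TGACNNNGC was in 1 of 8, that of Akr1c15, and in 10.1% of all. These are letter matches only. Over the 250 bases GC was 50.8% for Akr1b8, 40.4% for Akr1b7 and 38.4% for Akr1c19, beside a median of 51.2% for all promoters. The part of base content in the ATAAA matches, which hold A and T only, was not tested.

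Akr1b8 read higher on every DBP array than on any vehicle array. The enzyme reduces aliphatic and lipid-derived aldehydes, and its mouse counterpart was found as a protein induced by fibroblast growth factor. Its log2 signal was 9.61, 9.57, 9.54 and 9.58 in vehicle replicates 1 to 4. After DBP it was 10.40, 10.41, 10.39 and 10.14 in replicates 1 to 4. Within the DBP group, replicate 4 lay below the other 3 DBP arrays. The mean went from 9.57 ± 0.029 to 10.34 ± 0.13 (SD, n = 4 per group), a log2 difference of 0.76 ± 0.070 (SE of the limma fit; 95% interval 0.60 to 0.92) or 1.69-fold. DBP replicates 1 and 2 alone gave 0.83, and DBP replicates 3 and 4 alone 0.69.

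Akr1b7 is the vas deferens and adrenal member of the branch, known in mouse steroid-making cells as the enzyme that clears isocaproaldehyde. Its probe set was dim, with a log2 signal of 4.28, 4.18, 4.24 and 4.25 in the vehicle arrays, close to the lower quartile of all probe sets. After DBP it read 4.92, 4.72, 4.79 and 4.69 in replicates 1 to 4. Every DBP array was above every vehicle array. The mean went from 4.24 ± 0.042 to 4.78 ± 0.10 (SD, n = 4 per group), a log2 difference of 0.54 ± 0.064 (SE; 95% interval 0.40 to 0.68) or 1.46-fold. With DBP replicates 1 and 2 alone it came to 0.58, with replicates 3 and 4 alone to 0.50. Near the floor of the scale a log2 difference understates the change in transcript, so this value and that of the brighter Akr1b8 probe set cannot be ranked.

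Akr1b1, aldose reductase itself, did not share this pattern. Its main probe set was among the brightest on the array, with log2 signals from 11.92 to 12.00 in vehicle and from 11.90 to 12.07 after DBP. The groups overlapped fully, and the difference was 0.015 ± 0.058 (SE; 95% interval -0.11 to 0.14). A dimmer probe set of the gene gave 0.005 (-0.17 to 0.18). Akr1b10, whose human namesake reduces retinal and aldehydes, had a pair of dim probe sets that each gave 0.17, with 95% intervals of -0.027 to 0.37 and 0.023 to 0.32. The brighter one gave 0.063 for DBP replicates 1 and 2 alone, against 0.28 for replicates 3 and 4. For the dimmer one these values were 0.10 and 0.24, so in both cases the arrays with the higher lower quartile carried more of the difference. The part of that array shift in the result was not tested.

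**Figure D1:**
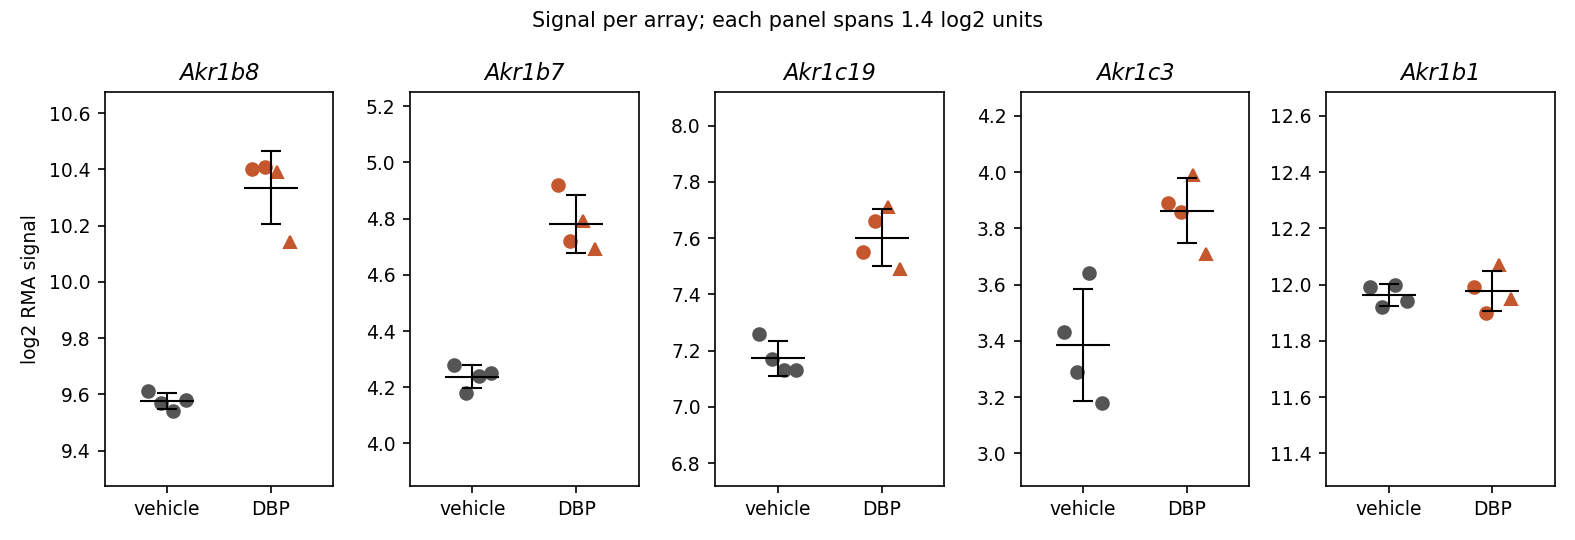
Log2 RMA signal (vertical axis) on each array for 5 genes, 1 panel per gene, vehicle in grey and DBP in orange; triangles are DBP replicates 3 and 4, and bars give the mean and SD of 4 arrays. All DBP points lie above all vehicle points for Akr1b8, Akr1b7, Akr1c19 and Akr1c3, while the groups overlap for Akr1b1, and the signal levels of different panels are not comparable.

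In the Akr1c branch, Akr1c19 had the brightest probe set. The gene encodes a dehydrogenase of the hydroxysteroid group. Its log2 signal was 7.26, 7.17, 7.13 and 7.13 in the vehicle arrays and 7.55, 7.66, 7.71 and 7.49 after DBP. The groups did not overlap, with a gap of about the range of the DBP arrays. The mean went from 7.17 ± 0.061 to 7.60 ± 0.10 (SD, n = 4 per group), a log2 difference of 0.43 ± 0.066 (SE; 95% interval 0.28 to 0.58) or 1.35-fold. DBP replicates 1 and 2 gave 0.43 and DBP replicates 3 and 4 gave 0.43. The gene fell outside the threshold used below when vehicle replicate 2, 3 or 4 was left out (limma adjusted p up to 0.0748), with differences between 0.39 and 0.47 on leaving out any array.

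Akr1c3 in the platform's naming is the rat gene also called Akr1c18, and its probe set was built on the cDNA of 20 alpha-hydroxysteroid dehydrogenase, which inactivates progesterone. Its log2 signal was very low, at 3.43, 3.29, 3.64 and 3.18 in vehicle and 3.89, 3.86, 3.99 and 3.71 after DBP. The groups did not overlap, but the vehicle arrays spread more widely than for the 3 genes above. The mean went from 3.38 ± 0.20 to 3.86 ± 0.12 (SD, n = 4 per group), a log2 difference of 0.48 ± 0.10 (SE; 95% interval 0.26 to 0.70), with 0.49 for DBP replicates 1 and 2 and 0.47 for replicates 3 and 4. It lay just outside the threshold of limma's test, an adjusted p of 0.05, at 0.056 by Benjamini-Hochberg, while Akr1c19 lay inside at 0.0149. Among array-wide alternatives Akr1c3 came inside after arrays were shifted to the same median (0.0488) and with a trend and robust prior (0.0297). It also came inside without vehicle replicate 3 (0.0477) or DBP replicate 4 (0.0439).

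Akr1c14 encodes the rat 3 alpha-hydroxysteroid dehydrogenase, which turns dihydrotestosterone into a weak androgen. Its 3 probe sets were all dim and gave differences of 0.18, 0.17 and 0.16, each with a 95% interval that included 0. They split the DBP arrays. In the dimmest one the vehicle arrays read 3.45 to 3.56, DBP replicates 1 and 2 read 3.87 and 3.91, and DBP replicates 3 and 4 read 3.44 and 3.43. This made 0.39 for the former pair and -0.068 for the latter. The other 2 probe sets gave 0.29 and 0.27 for DBP replicates 1 and 2, against 0.078 and 0.057 for replicates 3 and 4.

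Akr1c15 split the DBP arrays the other way, with 3.75 and 3.62 in DBP replicates 1 and 2, 4.10 and 3.99 in DBP replicates 3 and 4, and 3.58 to 3.79 in vehicle. Over all 4 DBP arrays its difference was 0.16 (95% interval -0.069 to 0.38), with -0.022 in the former pair and 0.34 in the latter. Akr1c13 gave 0.083 (95% interval -0.11 to 0.27) and Akr1c1, also called Hsd17b5, gave -0.025 (-0.16 to 0.11). For both, the groups overlapped. For all the Akr1c genes other than Akr1c19 the mean signal was at or below a log2 value of 5, near the low end of the array's range, which limits what can be seen. AKR1C3l1, a related gene whose capitalised symbol the naming did not take in, gave 0.085 (-0.040 to 0.21) at log2 signals of 2.92 to 3.09.

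**Figure D2:**
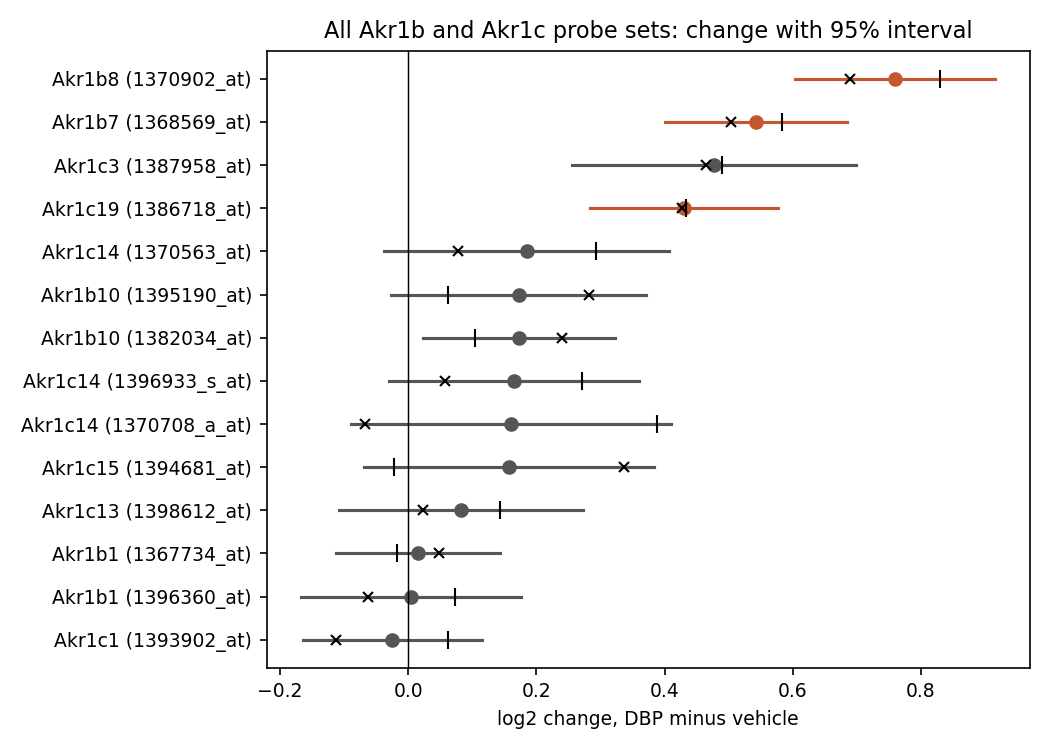
Log2 change, DBP minus vehicle (horizontal axis), for all 14 probe sets; circles are the mean of 4 DBP against 4 vehicle arrays, lines the 95% interval of the limma fit, vertical ticks DBP replicates 1 and 2 alone and crosses DBP replicates 3 and 4 alone, with probe sets past the threshold in orange. Ticks and crosses sit close together for Akr1c19, at 0.43 each, and far apart for the dimmest Akr1c14 probe set, at 0.39 and -0.068.

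Across the family, 13 of 14 probe sets had a higher mean after DBP, beside 54.9% of all 31042 probe sets tested. All 4 DBP arrays were above all 4 vehicle arrays for 4 member probe sets, beside 5.62% of all probe sets in that direction. In limma 3 of 14 probe sets passed, beside 1.07% of all in either direction. All 3 were higher, beside 0.419% of all, and 0 of 14 were lower, beside 0.648% of all. The threshold was a Benjamini-Hochberg adjusted p under 0.05 over all probe sets, and 5 of the 14 had an unadjusted p under 0.05, beside 18.2% of all probe sets. Nothing is read from these shares, since the comparison is the one that brought the family forward. The median difference was 0.17 over the 14 probe sets and 0.015 over all probe sets. It was -0.0175 over all probe sets with a mean log2 signal above 5. The shares and medians of all probe sets were not matched to the members for signal. Only 4 of the 14 had a mean log2 signal above 5: both of Akr1b1, and those of Akr1b8 and Akr1c19.

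The members lie in a pair of clusters, which the naming did not use. On RefSeq's GRCr8 assembly the 4 Akr1b genes follow one another on chromosome 4 in the order Akr1b1, Akr1b8, Akr1b10 and Akr1b7, with no other protein-coding gene between them. Differences along that row were 0.015, 0.76, 0.17 and 0.54. Those of Akr1b10 and Akr1b7 came from dim probe sets, so the 4 values cannot be ranked. Bpgm, the bisphosphoglycerate mutase next to Akr1b7, gave 0.22 ± 0.058 (SE; adjusted p = 0.114 in limma), and its other probe set gave 0.21 (adjusted p = 0.148). Slc35b4, a nucleotide sugar transporter on the far side of Akr1b1, gave 0.10 (adjusted p = 0.344). The 6 Akr1c genes lie on chromosome 17 beside Akr1e2. Akr1c19 and Akr1c3 stand near the middle of that row, separated by Akr1c12, which was not analysed here. Akr1c13 on one side gave 0.083 and Akr1c14 on the other gave 0.18. Of the measured genes flanking this row, Pfkp gave 0.25 (limma adjusted p = 0.119), Pitrm1 -0.048 (0.704), Klf6 0.02 (0.911), Net1 -0.033 (0.814) and Calml5 0.098 (0.573). The Akr1c genes are close copies of one another, and how far each probe set reads only its own gene was not tested. It was not tested for the Akr1b genes either. The differences of the dim Akr1b7 and the bright Akr1b8 probe sets can therefore not be taken as separate.

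**Figure D3:**
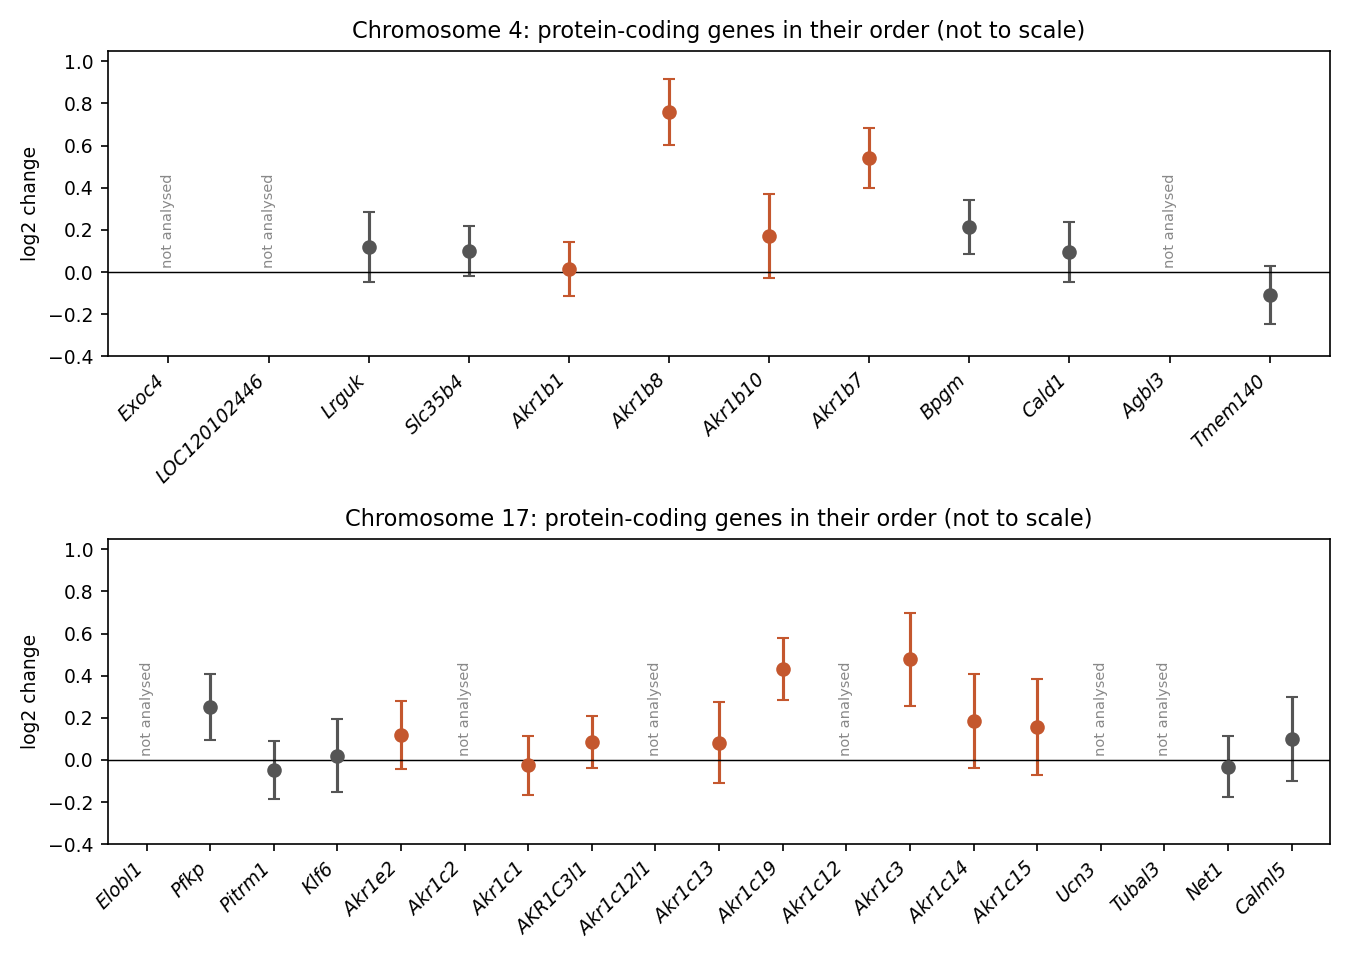
Log2 change, DBP minus vehicle (vertical axis), of protein-coding genes in their order along chromosome 4 (upper panel) and chromosome 17 (lower panel), evenly spaced and not to scale; aldo-keto reductases are orange, other genes grey, bars are 95% intervals, and genes with no point were not analysed. Akr1b8 (0.76) and Akr1b7 (0.54) stand on either side of Akr1b10 (0.17), and Akr1c19 (0.43) and Akr1c3 (0.48) stand above the rest of the chromosome 17 row.

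The signals of the 3 genes were compared array by array. Over the 8 arrays the Pearson correlation was 0.977 between Akr1b7 and Akr1b8, 0.974 between Akr1b8 and Akr1c19 and 0.927 between Akr1b7 and Akr1c19. These values mostly reflect the difference between the groups. After the group means were taken out, they were 0.552, 0.703 and 0.0929. The 5 genes most like Akr1b7 over the 8 arrays were Evi2a (r = 0.991), Rdh11 (0.982), Cmas (0.979), Akr1b8 (0.977) and Klk1c4 (0.975). Of these Evi2a, a membrane protein gene, had log2 means of 5.25 ± 0.051 and 6.06 ± 0.14 (SD, n = 4 per group), and Rdh11, a retinal reductase, had 7.67 ± 0.025 and 7.91 ± 0.041. Those most like Akr1b8 were Aig1 (0.985), Kyat3 (0.983), Zfp422 (0.982), Cmas (0.981) and Evi2a (0.978). Those most like Akr1c19 were Them5 (0.986), Ass1 of the urea cycle (0.979), Bpgm (0.978), Endou (0.976) and Nipsnap3b (0.976). Bpgm, the neighbour of Akr1b7, was thus among the 5 for Akr1c19 and not among the 5 for Akr1b7. All these correlations share the same arrays and the same group difference.

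Other genes of the pathways around these enzymes were taken from 7 lists, with 168 genes measured. The lists were chosen with earlier results of these data known. Their counts and adjusted p values, here and below, are therefore a description and not an independent test. In limma 10 of the 168 passed, 4 higher and 6 lower, beside 1.22% of all 14217 genes in either direction, 0.598% higher and 0.626% lower. An unadjusted p under 0.05 was found for 19.1% of all genes. The median change of all genes was 0.022 on the log2 scale. With DBP replicates 1 and 2 alone, 9 of these 10 still passed, the exception being Aldh1l1. That fit reuses arrays by which the 10 were called, so it is no separate support. Without 1 of the vehicle arrays, 2 to 4 of the 168 passed. None of the 8 other aldo-keto reductases passed (2 had an unadjusted p under 0.05), and their median was 0.11. Akr7a3, an aflatoxin aldehyde reductase, came nearest, at 0.32 ± 0.068 (SE; limma adjusted p = 0.0609), and Kcnab1, a potassium channel subunit of the same protein fold, gave 0.23 (adjusted p = 0.183). Among 31 aldehyde and carbonyl enzymes 0 passed higher and 2 fell (8 had an unadjusted p under 0.05), with a median of -0.015. Aldh1b1, a mitochondrial aldehyde dehydrogenase, fell by 0.50 on the log2 scale, from 7.56 ± 0.076 to 7.07 ± 0.12 (SD, n = 4 per group; limma adjusted p = 0.0123). Aldh1l1, a folate enzyme of the same superfamily, fell by 0.34 (adjusted p = 0.0355). None of 10 genes of the polyol and fructose pathway, in which aldose reductase acts, passed (1 had an unadjusted p under 0.05), and the median was 0.02. Hagh, a glyoxalase, gave 0.24 (adjusted p = 0.155) and Hk1 gave -0.12 (adjusted p = 0.397). Aldh1b1 lost its call without vehicle replicate 1 or 2 (adjusted p up to 0.0528). For Aldh1l1 the call ended when any single vehicle array was left out and without DBP replicate 1, 3 or 4 (limma adjusted p up to 0.133). It also ended in DBP replicates 1 and 2 alone and with RNA integrity or the low spike-ins as a term. Only DBP replicates 3 and 4 had low spike-ins, so that term gives the same difference as DBP replicates 1 and 2 alone.

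Of 29 measured genes that make or inactivate steroids, 1 fell and 0 passed higher, with a median of 0.12, and 13 had an unadjusted p under 0.05. Hsd11b2, which inactivates glucocorticoid, read 7.89, 7.87, 7.83 and 7.82 in vehicle and 7.28, 7.32, 7.29 and 7.09 after DBP. The groups were well apart, and the gene fell by 0.61 on the log2 scale (SE 0.064; limma adjusted p = 0.003), a call it kept without any 1 array. Among 38 regulators and trophic receptors of steroidogenic cells, 2 rose and 2 fell, with a median of -0.081, and 17 had an unadjusted p under 0.05. Nr4a1, an orphan nuclear receptor induced by luteinizing hormone, rose by 1.16 (adjusted p = 0.0132) and Prkar2b, a regulatory subunit of protein kinase A, rose by 0.36 (adjusted p = 0.037). Mrap, the accessory protein of the ACTH receptor, fell by 0.61 (adjusted p = 0.029) and Cebpa, a leucine zipper factor, by 0.51 (adjusted p = 0.015). Of the 4 other Cebpa probe sets 3 also fell and 1 gave -0.045. Nr4a1 lost its call without vehicle replicate 3 (adjusted p = 0.0604), and Cebpa when any single vehicle array was left out (up to 0.0638). Mrap and Prkar2b lost theirs without any 1 of the vehicle arrays or without DBP replicate 1 (up to 0.116 and 0.123), and Mrap also with the low spike-ins as a term (0.0612).

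Among 22 prostaglandin genes 1 rose and 0 fell (5 had an unadjusted p under 0.05), with a median of 0.041. Hpgd, which oxidises and so inactivates prostaglandins, rose by 0.48, from 7.21 ± 0.12 to 7.69 ± 0.12 (SD, n = 4 per group; limma adjusted p = 0.0227). Its other probe set gave 0.34 without passing (adjusted p = 0.132). Of 30 genes of Nrf2 and its targets, 1 rose and 1 fell (7 had an unadjusted p under 0.05), with a median of 0.042. Srxn1, sulfiredoxin, rose by 0.89 (adjusted p = 0.0126), although its 2 dimmer probe sets gave 0.30 and 0.083 without passing, and the heme-degrading enzyme gene Hmox1 fell by 0.36 (limma adjusted p = 0.032). Hpgd lost its call without vehicle replicate 2, 3 or 4 or without DBP replicate 1 or 3 (adjusted p up to 0.0896). Hmox1 lost its call without vehicle replicate 1, 2 or 3 or without DBP replicate 1 or 3 (up to 0.126) and after quantile normalization (0.0534), and Srxn1 without vehicle replicate 3 or 4 (up to 0.0571).

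**Figure D4:**
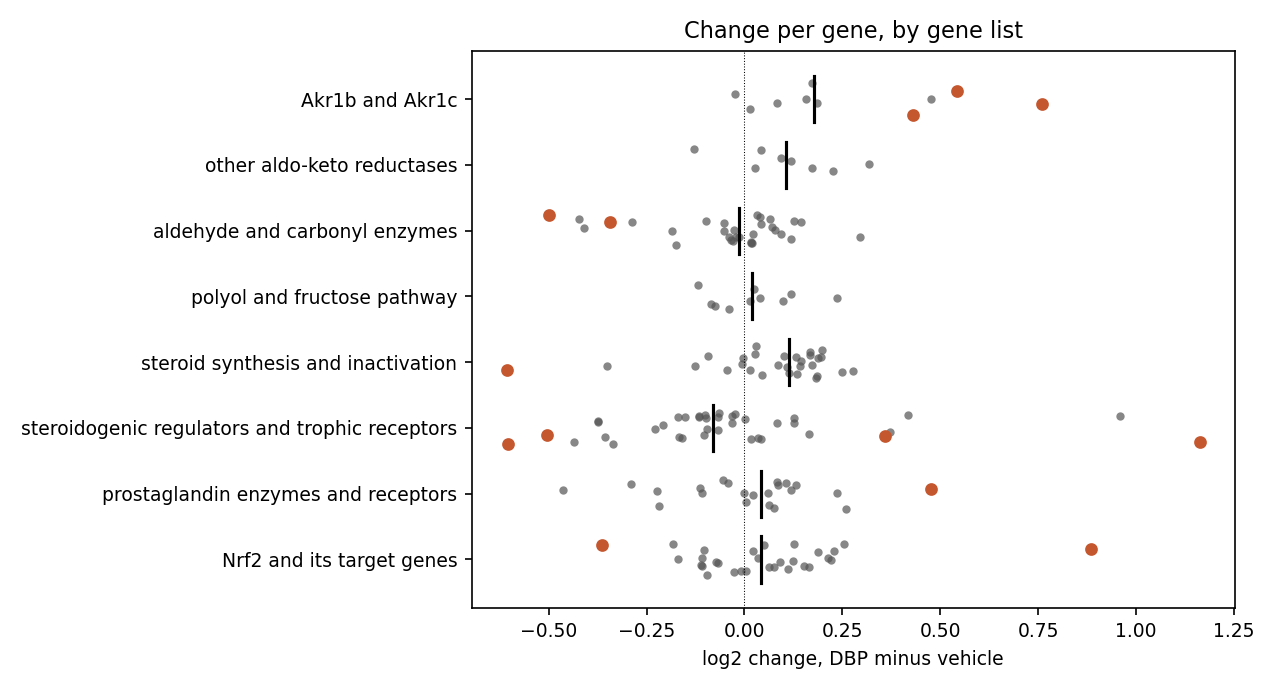
Log2 change, DBP minus vehicle (horizontal axis), of 1 probe set per gene in the Akr1b and Akr1c family and in each of 7 pathway lists; orange points passed limma's threshold, grey points did not, black bars are medians, and vertical scatter is for legibility. The 3 orange points of the top row are Akr1c19 (0.43), Akr1b7 (0.54) and Akr1b8 (0.76), and the 3 points farthest right lower down are Nr4a1 (1.16) and Srxn1 (0.89), in orange, and Nr4a3 (0.96), in grey.

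Markers of tissues in which Akr1b7 is known to be abundant were read beside it. Of 8 measured adrenal markers 0 passed higher and 1, Mrap, passed lower. In all, 5 had a higher mean after DBP and 3 a lower one, beside 57.3% of all genes with a higher mean. The 4 with an unadjusted p under 0.05 in limma were Mrap, Th (0.265), Dbh (0.22) and Chga (-0.335). The summed linear signal of the list was 512 to 521 in vehicle and 423 to 505 after DBP. That sum weighs bright markers most, and Mrap was the brightest of the list. Cyp21a1, an enzyme of the adrenal cortex, had a log2 signal of 4.58 ± 0.19 in the vehicle group and 4.61 ± 0.067 in the DBP group (SD, n = 4 each). Cyp11b1, another such enzyme, was brighter and less even, at 5.528 ± 0.281 in vehicle and 5.435 ± 0.509 after DBP. Its difference was 0.338 for DBP replicates 1 and 2 and -0.522 for DBP replicates 3 and 4. Of 15 markers of mesonephric duct, epididymis and vas deferens 0 passed in limma (4 had an unadjusted p under 0.05), and the summed signal was 1220 to 1290 in vehicle and 1230 to 1320 after DBP, with 9 of the 15 below a log2 mean of 5. None of 11 erythroid and 14 macrophage markers passed in limma, with 4 and 3 of them at an unadjusted p under 0.05, beside the 19.1% of all genes. All 11 erythroid and all 14 macrophage markers had a higher mean after DBP, beside 57.3% of all genes, with medians of 0.30 and 0.11. The erythroid values differed between the DBP arrays: the median was 0.53 for DBP replicates 1 and 2 and 0.0025 for DBP replicates 3 and 4, with 11 and 6 of the 11 above the vehicle mean. The widest split was that of Slc4a1, the red cell anion exchanger, at 6.46 to 7.05 in vehicle. It read 8.10 and 7.79 for the first pair of DBP arrays and 6.25 and 6.42 for the second. Not all markers split in this way. Hbz gave differences of 0.363 and 0.388 for the first and second pair, and Hba-a3 gave 0.32 and 0.235. For the macrophage list the same medians were 0.18 and 0.078, with 13 and 10 of the 14 above. Summed signals were 19900 to 22800 in vehicle and 20500 to 25200 after DBP for the erythroid list, and 2390 to 2580 and 2560 to 2920 for macrophages. Of 11 endothelial markers 1 passed (3 had an unadjusted p under 0.05): Plvap rose by 0.36 (limma adjusted p = 0.0471; up to 0.142 without any 1 of the vehicle arrays, 0.0999 without DBP replicate 3, 0.0673 with DBP replicates 1 and 2 alone, 0.0856 with RNA integrity and 0.125 with the low spike-ins as a term). With the spike-in term the difference of Plvap is that of DBP replicates 1 and 2 alone, 0.27, so these are not separate alternatives. The endothelial sums were 2530 to 2600 in vehicle and 2610 to 2830 after DBP. None of 10 Leydig cell, 10 Sertoli cell, 4 germ cell and 10 liver and kidney markers passed in limma. At an unadjusted p under 0.05 were 6, 5, 2 and 0 of them, again beside 19.1% of all genes. A higher mean after DBP was found for 4, 7, 2 and 9 of them, beside 57.3% of all genes. Gata1 was counted in both the Sertoli and the erythroid list. It gave 0.592 for DBP replicates 1 and 2 and 0.127 for DBP replicates 3 and 4. Of the liver and kidney markers 6 lay below a log2 mean of 5. The part of these cell types in the differences of the family was not tested.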

How the data were processed

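The deposited values are log2 signals of each probe set on each array, which the authors computed by RMA according to the submitters' processing notes. The sources used here do not give its version, and detection calls were not used. From 31099 probe sets, 57 Affymetrix controls were removed. Of the 31042 tested, 20826 had 1 gene symbol in the platform annotation, 436 had several and 9780 had none. A gene was represented by its probe set with the highest mean over the 8 arrays.

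DBP and vehicle were compared in limma 3.58.1 under R 4.3.3, 2-sided, with Benjamini-Hochberg adjustment over all probe sets; the procedure was tested on simulated data. RMA damps differences of dim probe sets, and precision is limited by the number of arrays. Named genes were all members, pathway genes past the threshold (otherwise the 2 with the smallest p), the 5 genes most correlated with each of 3 members, and markers past the threshold. In a few places neighbouring genes and other markers were chosen after their values were seen. The members and lists were chosen with earlier results of these data known. Alternatives covered centring, quantile normalization, a signal filter, the prior, the replicate block, RNA integrity, the spike-in arrays and leaving out each array. Promoter searches ran in Python 3.11.15 (pandas 2.3.3); plots were drawn in matplotlib 3.10.9.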

Additional observations from a re-analysis of the deposited data

Results flagged for a closer look

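Outlying arrays were sought in each group of 4 for the 14 probe sets, 28 groups in all, of which chance marks about 1 in 20. In the DBP group, Akr1b8 in replicate 4 (10.14 on the log2 scale) lay apart from the other 3 arrays, the nearest of which was at 10.39, with a gap of 0.926 of the group's range. The brightest Akr1c14 probe set in DBP replicate 2 (4.54) lay above the nearest other array at 4.19, with a gap of 0.897 of the range.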

How the results depend on the processing

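The differences of Akr1b7, Akr1b8 and Akr1c19 moved by less than 1 SD of the replicates under every alternative run. They spanned 0.49 to 0.58 for Akr1b7, 0.69 to 0.83 for Akr1b8 and 0.39 to 0.47 for Akr1c19; without 1 array the spans were 0.50 to 0.57, 0.73 to 0.82 and 0.39 to 0.47. Akr1c19 left the threshold without vehicle replicate 2, 3 or 4, and Akr1b7 was not tested with the filter at a mean log2 of 5. Each of the 3 has 1 probe set, so a mean over probe sets gave no other value. The count of member probe sets past the threshold ran from 2 to 4. Where it was 4, the added probe set differed. It was the dimmest of Akr1c14 in DBP replicates 1 and 2 alone (limma adjusted p = 0.02) and with the spike-in term (0.0237). In DBP replicates 3 and 4 alone it was that of Akr1c15 (0.0291), and otherwise that of Akr1c3. The 10 pathway genes past the threshold became 16 with a trend and robust prior, 28 in DBP replicates 3 and 4 alone, 6 with the replicate block, and 2 to 14 without 1 array; the cause was not tested. Over all probe sets the count past the threshold was 331, against 175 with the block, 577 and 4129 in DBP replicates 1 and 2 and 3 and 4 alone, and 82 to 606 without 1 array. Arrays shifted to the same median gave 158 higher and 159 lower, against 130 and 201. Samples with the same number did not deviate together throughout (correlations of -0.076 to 0.108), so the numbers were not taken as pairs. With the number as a block, Akr1c19 (limma adjusted p = 0.0538) and Akr1c3 (0.0305) changed sides of the threshold, and Hpgd (0.0527), Hmox1 (0.0674), Aldh1l1 (0.0777), Prkar2b (0.0896) and Plvap (0.0971) left it.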
